A study of Mus musculus with 48 samples.

Results

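The comparison described here is that of regulatory T cells (Tregs) from mice given wild-type (WT) IL-2 under an antibody that blocks MHC class II against Tregs from mice given the same IL-2 under an isotype control antibody. It holds every Treg library of the count matrix labelled with WT drug treatment, 4 with MHC II block and 4 with isotype, which makes 8 of the 48 libraries of the series. All mice were female C57BL/6 animals of 8 to 12 weeks without a genetic modification. By the study's methods each library came from the spleen of 1 mouse processed on its own. Isotype replicates 3a and 3b, however, carry the same replicate number in their titles and were taken as different mice. Both groups received 500 µg of antibody into the peritoneum on day -1 and again on day 0, then 25 µg of human WT IL-2 fused to an Fc part under the skin on day 0, and spleens were taken on day 4. Tregs were the cells bound by a CD25 positive-selection kit, and the unbound CD4 T cells of the same spleens were kept as conventional T cells (Tcons). Purity was thus set by magnetic beads against CD25, which activated T cells and some other cells also carry, and the study checked it by staining part of the purified cells for Foxp3. The other Treg libraries of the series came from mice given PBS or 1 of the attenuated IL-2 muteins H16R and 3x, each with and without the block. A single block library, replicate 1, held much RNA of other cells, so the main results are given with all 8 libraries and again with the 7 that remain without it.

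MHC class II molecules display peptides on antigen-presenting cells, and a CD4 T cell that recognises its peptide signals through the T cell receptor (TCR). That signal switches on within minutes to hours a set of immediate genes such as the NR4A and EGR transcription factors, and in Tregs it also maintains the effector programme of receptors and suppressive cytokines. IL-2 reaches Tregs through a separate receptor that activates STAT5, and it supports their survival, their FOXP3 expression and their division. Blocking MHC class II while IL-2 is given addresses which genes of IL-2-treated Tregs also need the TCR signal.

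The 8 libraries held between 31.25 and 51.24 M expected counts (1 M is 1000000), with a median of 44.52 M in the isotype group and 42.65 M in the block group. The Treg label was borne out in each of the 8 libraries by its defining markers. Foxp3, the lineage factor, stood between 697 and 1017 CPM (counts per 1000000 counts of the library), Il2ra, which encodes CD25, between 311 and 463 CPM, and Ctla4, an inhibitory receptor of Tregs, between 652 and 1664 CPM. In the isotype libraries the summed level of 16 B cell markers was 86.4 to 149.5 CPM and that of 11 neutrophil markers 7.18 to 12.5 CPM.

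Block replicate 1 had the highest summed level of all 11 lists of markers of other spleen cells among the 8 libraries. In that library the 11 red pulp macrophage markers summed to 923 CPM, against 72.4 to 84.3 CPM in block replicates 2 to 4 and 79.2 to 109 CPM in the isotype libraries. Its 16 B cell markers summed to 1025 CPM, its 17 myeloid markers to 1048 CPM and its 11 neutrophil markers to 326 CPM, against highest isotype sums of 149.5, 176 and 12.5 CPM. The 5 genes with the largest rise over all 8 libraries were C1qb, Cd5l, C1qc, C1qa and Fcna, which spleen macrophages express. C1qb stood at 71.0 CPM in block replicate 1 and at 1.24 CPM or less in the other 7 libraries, and its log2 fold change of 6.12 ± 1.38 (adjusted p = 0.0015) became 1.30 ± 1.01 (adjusted p = 0.39) without that library. Cd5l, C1qc, C1qa and Fcna lost their calls in the same way, with log2 fold changes between 0.86 and 1.48 in the 7 libraries.

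The remaining block libraries also held more transcripts of some other cells than the isotype libraries. The 5 plasma cell markers summed to 642, 680.3, 698 and 778 CPM in isotype replicates 1, 2, 3a and 3b and to 3246, 2124, 1552 and 2884 CPM in block replicates 1 to 4, so the groups did not overlap. The difference was the largest that the design can show (exact two-sided permutation test, p = 0.029 with and without block replicate 1, Benjamini-Hochberg adjusted over 11 marker lists p = 0.063 in both). The same held for the summed dendritic cell markers, at 14.6 to 19.5 CPM under isotype and 31.5 to 106 CPM under block, for the NK cell markers, at 89.9 to 138 and 193 to 302 CPM, and for the myeloid and neutrophil markers, in both cases with exact permutation p = 0.029 and adjusted p = 0.063. The ratio of the block mean to the isotype mean without block replicate 1 was 3.13 for plasma cell, 2.63 for dendritic cell, 1.81 for NK cell, 1.50 for myeloid and 3.18 for neutrophil markers. The B cell sums (adjusted p = 0.16 without replicate 1) and the MHC class II gene sums (adjusted p = 0.2) did not pass the threshold of 0.1. Immunoglobulin genes took 1.14 ± 0.116% (SD, n = 4) of the expected counts under isotype and 3.66 ± 1.29% (SD, n = 4) under block, or 3.27 ± 1.25% without replicate 1. In bulk RNA more cells of a type and more RNA per cell cannot be told apart. The part that these transcripts have in the results that follow was not tested beyond 2 alternatives. These were leaving out replicate 1 and a fit with the summed B cell and myeloid markers as a covariate. With that covariate, without replicate 1, 5 of 5 plasma cell, 6 of 8 dendritic cell and 8 of 9 NK cell markers still rose. Of the myeloid markers 6 of 14 rose, and of the neutrophil markers 1 of 7. The covariate thus did not adjust for plasma cell, dendritic cell or NK cell transcripts.

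**Figure D1:**
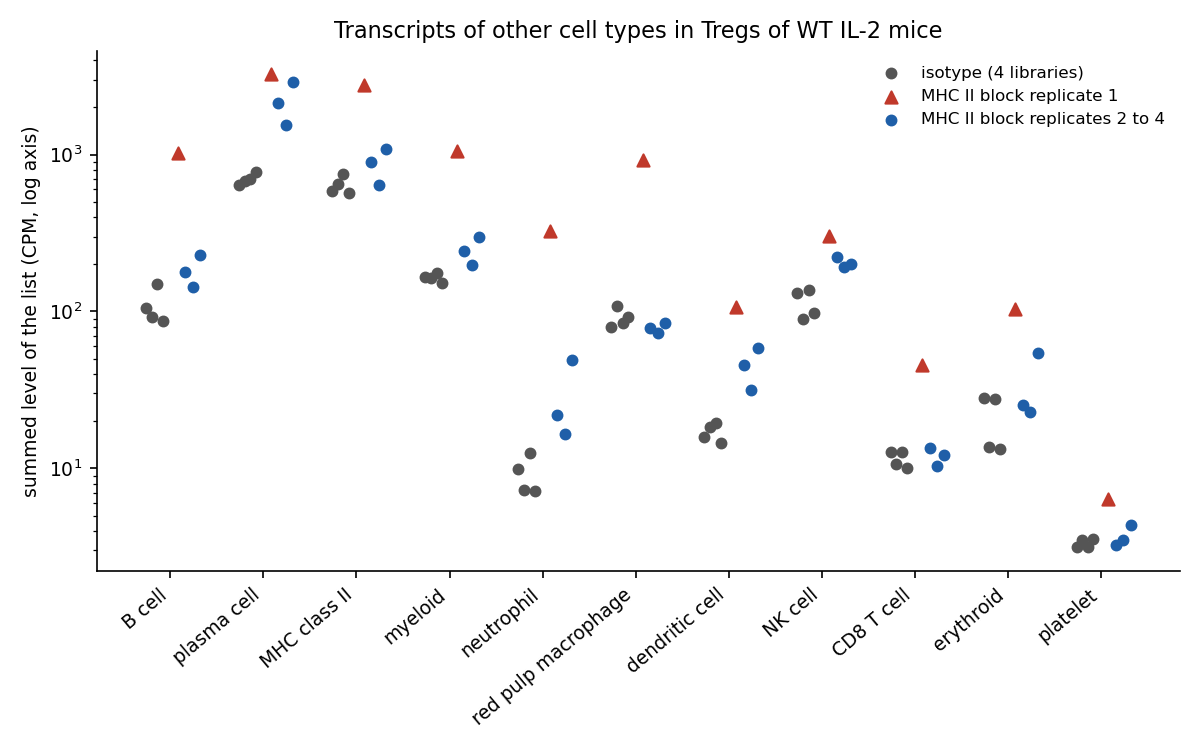
Summed CPM (log axis) of each cell type marker list in the Treg libraries of WT IL-2 mice, with the 4 isotype libraries, block replicate 1 and block replicates 2 to 4 drawn as separate points. Block replicate 1 lies above all other libraries for every list shown, and for plasma cell markers all 4 block libraries (1552 to 3246 CPM) lie above all isotype libraries (642 to 778 CPM).

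In the 8 libraries 4152 of 12390 tested genes (33.5%) differed between block and isotype at an adjusted p under 0.1 in edgeR's quasi-likelihood test, 2254 (18.2%) higher and 1898 (15.3%) lower under the block. Without block replicate 1 there were 3352 of 12348 (27.1%), 1742 (14.1%) higher and 1610 (13.0%) lower, and 3060 genes (24.7%) were called in the same direction both times. Leaving out block replicate 3 as well gave the lowest count, 2258. Most differences were small: 383 genes (3.10%) differed at least 2-fold without block replicate 1, of which 330 (2.67%) rose and 53 (0.429%) fell, and with it 618 (4.99%) rose and 50 (0.404%) fell. All log2 fold changes below are block minus isotype with their standard error, and "7 libraries" means without block replicate 1.

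Among the genes with the largest falls were Areg, which encodes the growth factor amphiregulin, and Nr4a3, an orphan nuclear receptor induced by the TCR. Areg stood at 74.1, 95.3, 103 and 87.8 CPM in isotype replicates 1, 2, 3a and 3b and at 23.6, 41.1, 29.5 and 29.6 CPM in block replicates 1 to 4. Nr4a3 stood at 115, 154, 155 and 165 CPM under isotype and at 56.1, 71.8, 69.3 and 71.7 CPM under block. For both genes every block library was below every isotype library, and block replicate 1 was the lowest of the 8. The log2 fold change of Areg was -1.54 ± 0.11 (adjusted p = 2.5e-10) in 8 libraries and -1.43 ± 0.11 (adjusted p = 9.3e-10) in 7, and that of Nr4a3 was -1.13 ± 0.15 (adjusted p = 3.4e-06) and -1.05 ± 0.16 (adjusted p = 3.4e-05). Their promoters are shown because both hold TGACGT, the core of the cyclic AMP response element bound by the CREB and ATF families. The sequences are the 250 bases before the transcription start in RefSeq on GRCm38.p6, chr5:91139349-91139598 on the plus strand for Areg and chr4:48045055-48045304 on the plus strand for Nr4a3, with TGACGT on either strand in capitals.
Areg: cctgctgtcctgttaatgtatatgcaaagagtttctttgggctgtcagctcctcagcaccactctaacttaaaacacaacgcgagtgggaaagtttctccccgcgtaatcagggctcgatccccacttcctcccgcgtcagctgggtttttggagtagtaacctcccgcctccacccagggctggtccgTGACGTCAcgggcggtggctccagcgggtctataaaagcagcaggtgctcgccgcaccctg
Nr4a3: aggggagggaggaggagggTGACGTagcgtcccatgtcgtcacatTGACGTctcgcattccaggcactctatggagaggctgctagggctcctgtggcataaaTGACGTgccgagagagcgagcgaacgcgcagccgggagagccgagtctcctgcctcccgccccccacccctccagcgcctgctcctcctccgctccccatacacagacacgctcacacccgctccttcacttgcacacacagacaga
In Areg the match to TGACGT on one strand overlapped its match on the other, forming the palindrome TGACGTCA that 2.70% of the 9763 tested promoters held, and Nr4a3 held 3 separate matches. TGACGT was found in 10.2% of all tested promoters, in 3 of 21 (14.3%) of those of the TCR response genes and in 3 of 12 (25.0%) of those of the genes with the largest falls. A match describes these letters only.

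The TCR response list, of 31 genes, held 17 genes that fell in both comparisons, against 15.3% and 13.0% of all tested genes. The list held 7 genes that rose in 8 libraries (22.6%) and 5 that rose in 7 (16.1%), near the 18.2% and 14.1% of all tested genes. Its median log2 fold change was -0.28 in 8 libraries and -0.27 in 7, beside 0.01 over all tested genes. In 15 of the 31 genes every block library was below every isotype library, which held for 11.5% of all tested genes. The NR4A receptors were among the genes that fell. Nr4a1, whose product NUR77 is widely used as a readout of TCR signalling, stood at 1027, 918, 1216 and 1066 CPM under isotype and at 619, 671, 641 and 643 CPM under block, without overlap (log2 fold change -0.72 ± 0.11 with adjusted p = 2.0e-05, and -0.70 ± 0.12 with adjusted p = 1.4e-04 in 7 libraries). Nr4a2, the remaining family member, went from 79.1 to 126 CPM under isotype to 49.7 to 58.0 CPM under block (-0.94 ± 0.18 in 7 libraries, adjusted p = 4.5e-04).

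Cd83, a membrane protein of activated lymphocytes, fell as well. Its levels were 135, 173, 207 and 208 CPM under isotype and 95.4, 104, 94.1 and 88.5 CPM under block, again without overlap (-0.92 ± 0.18 in 7 libraries, adjusted p = 4.7e-04). Egr2, an early growth response factor, fell less, by 0.44 on the log2 scale in 7 libraries (adjusted p = 0.0026). Irf4, a transcription factor that scales with TCR strength, fell by 0.32 in 8 libraries (adjusted p = 0.032) and by 0.43 in 7 (adjusted p = 0.0054), and lost its call at -0.21 when block replicate 3 alone was left out of the 8. The other TCR response genes that fell both times were Egr3, Cd69, Cd5, Nfkbid, Tnfrsf9, Tnfrsf4, Icos, Rel, Bhlhe40, Ier2 and Junb. Egr1 did not join them: it stood at 353 to 426 CPM under isotype and 353 to 532 CPM under block, and its log2 fold change of 0.24 ± 0.10 in 8 libraries (adjusted p = 0.07) was 0.15 ± 0.10 in 7 (adjusted p = 0.29). Its call in 8 libraries was also lost without isotype replicate 1 (0.20) or 2 (0.21) or block replicate 4 (0.16).

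The MAPK feedback list, of 14 genes whose products restrain the kinase cascade below the TCR, held 8 that fell both times (11.9% of all tested genes did) and 1, Spry2, that rose both times, with a median of -0.24 in 8 libraries and -0.33 in 7. The 8 were the dual-specificity phosphatases Dusp1, Dusp4, Dusp5, Dusp10, Dusp14 and Dusp16 and the inhibitors Spry1 and Spred2. Dusp4 stood at 302, 322, 326 and 321 CPM under isotype and at 131, 165, 157 and 159 CPM under block. The isotype libraries lay within a narrow range and the block levels were about the same distance below it in each mouse (-0.99 ± 0.08 in 7 libraries, adjusted p = 9.3e-10). Dusp14 went from 14.1 to 27.1 CPM under isotype to 5.19 to 9.78 CPM under block (-1.30 ± 0.19, adjusted p = 1.4e-05). Spry2 was at 5.19 to 8.23 CPM under isotype and 7.70 to 13.4 CPM under block with overlap, and its rise in 7 libraries (0.57 ± 0.19, adjusted p = 0.03) lost its call at 0.43 when block replicate 2 was also left out.

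NF-kB is the transcription factor family that the TCR and the co-stimulatory TNF receptors share. Of 29 genes of NF-kB and the TNF receptor family 19 fell and 1 rose in 8 libraries, and 17 fell and 2 rose in 7, with medians of -0.20 and -0.19, where 15.3% and 13.0% of all tested genes fell and 18.2% and 14.1% rose. The falls covered the subunits Nfkb1, Rel and Rela, the inhibitors Nfkbia, Nfkbib, Nfkbie, Nfkbid and Nfkbiz and the receptors that Tregs use for co-stimulation. Tnfrsf9, which encodes 4-1BB, stood at 311, 333, 370.5 and 335 CPM under isotype and at 166, 217, 210.4 and 205 CPM under block (-0.68 ± 0.09 in 7 libraries, adjusted p = 1.1e-05). Tnfrsf4, which encodes OX40, fell by 0.76 (adjusted p = 1.8e-06) and Tnfrsf1b, which encodes TNF receptor 2, by 0.68 (adjusted p = 8.7e-07), neither with overlap between the groups. The member that rose both times was Tnfrsf1a, encoding TNF receptor 1 (0.30 ± 0.06 in 7 libraries, adjusted p = 0.0011). Tnfrsf25, the other riser of the 7 libraries, had a log2 fold change of 0.15 (adjusted p = 0.078) and lost that call when any of isotype replicates 2 and 3b or block replicates 2 to 4 was left out, at values between 0.13 and 0.17.

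Effector Tregs are the activated Tregs that carry inhibitory receptors, make IL-10 and enter tissues. Of the 29 effector Treg genes 19 fell and 2 rose in 8 libraries (15.3% and 18.2% of all tested genes) and 18 fell and 2 rose in 7 (13.0% and 14.1% of all), with medians of -0.42 and -0.48. The receptors were among the clearest. Icos, a co-stimulatory receptor, stood at 379, 502, 389.6 and 398 CPM under isotype and at 179.9, 273, 259 and 244 CPM under block (-0.69 ± 0.11 in 7 libraries, adjusted p = 3.8e-05). Ctla4 stood at 1328, 1664, 1466 and 1378 CPM under isotype and at 652, 957, 965 and 894 CPM under block (-0.64 ± 0.09, adjusted p = 6.2e-06). Tigit stood at 286, 342, 301 and 281 CPM under isotype and at 143, 177, 154 and 155 CPM under block (-0.90 ± 0.11, adjusted p = 8.7e-07). In all 3 receptor genes the groups were separate, and for Icos and Ctla4 block replicate 1 was well below the other block libraries.

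Lag3, a receptor that binds MHC class II itself, stood at 176, 322, 164 and 145 CPM under isotype and at 112, 135, 100.4 and 103 CPM under block. The groups did not overlap, but isotype replicate 2 stood apart and the log2 fold change of -0.84 ± 0.21 in 7 libraries (adjusted p = 0.0058) was -0.53 without it. Il10, the suppressive cytokine, went from 175, 129, 203 and 125 CPM under isotype to 68.5, 92.4, 81.1 and 87.5 CPM under block (-0.86 ± 0.15, adjusted p = 1.6e-04). Ccr8, a chemokine receptor of tissue Tregs, stood at 81.8 to 109 CPM under isotype and 31.2 to 51.5 CPM under block, less than the lowest isotype library in each mouse (-1.09 ± 0.11, adjusted p = 5.7e-08). Prdm1, which encodes the effector factor BLIMP1, fell by 0.33 (adjusted p = 0.012) and Klrg1, a marker of late effector cells, by 0.61 with overlapping groups (adjusted p = 0.021). Both lost their calls in the 7 libraries when block replicate 3 was also left out, at -0.22 and -0.48.

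The effector list's exceptions were Epas1, a hypoxia-inducible factor subunit, at 4.87 to 5.54 CPM under isotype and 7.95 to 9.16 CPM under block (0.72 ± 0.19 in 7 libraries, adjusted p = 0.0094), and Id2, an inhibitor of E proteins, at 0.17 ± 0.06 (adjusted p = 0.061). Id2 lost its call in 7 libraries when isotype replicate 1 or 3b or block replicate 2 or 4 was left out, at values from 0.14 to 0.18.

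**Figure D2:**
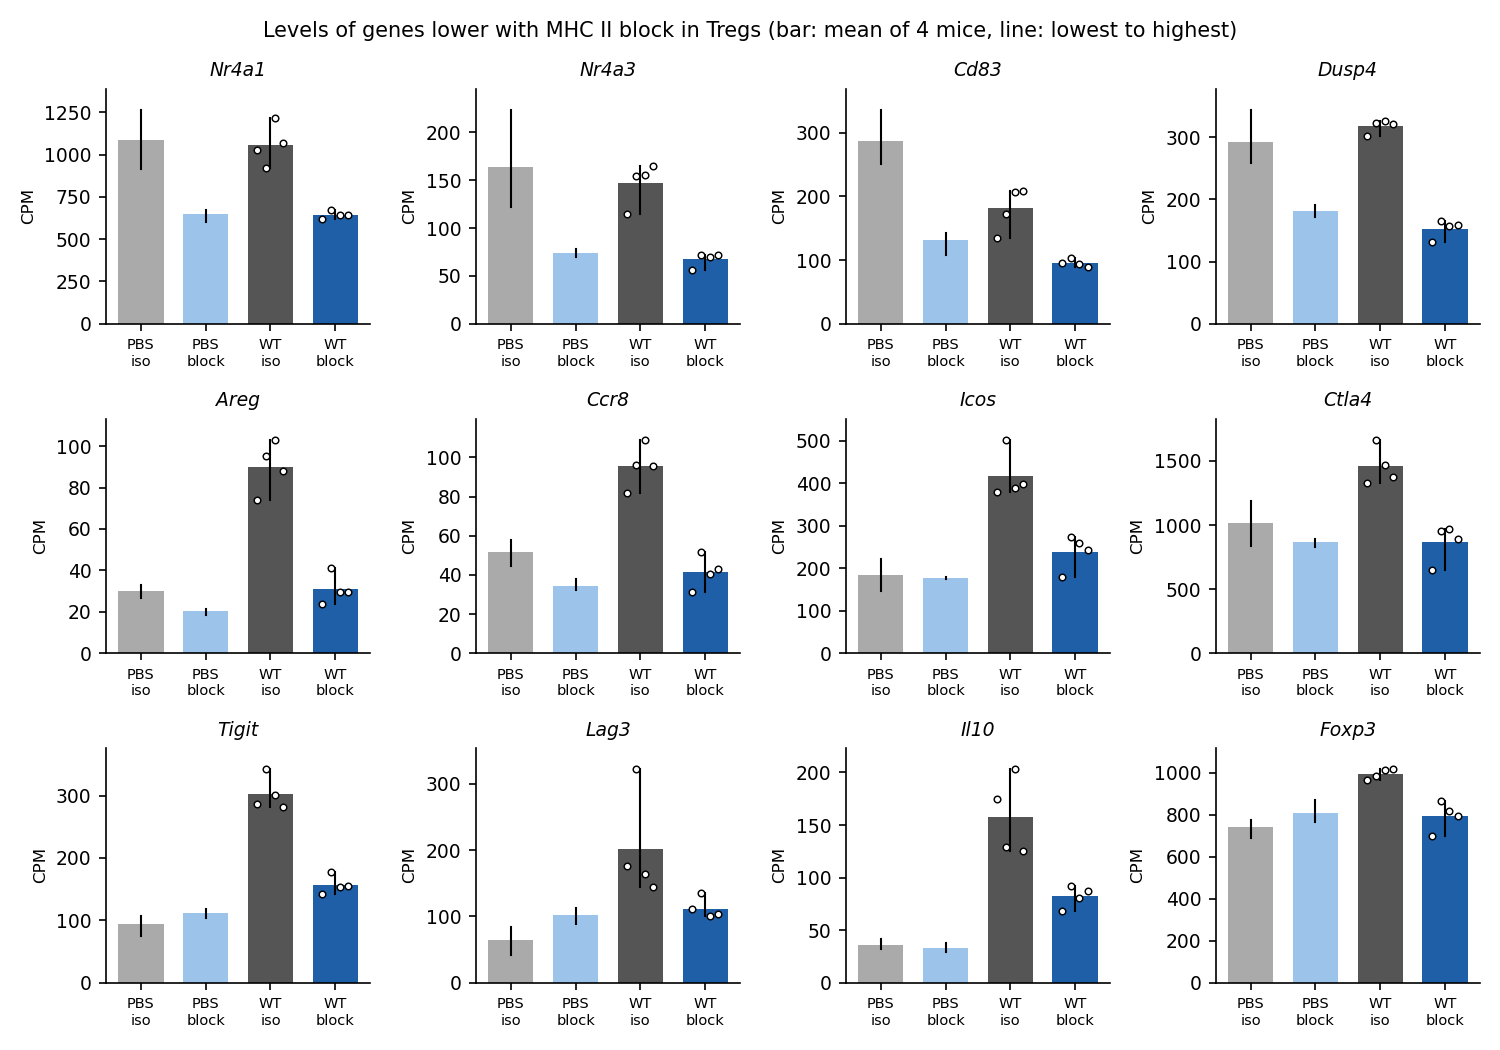
CPM of 12 genes in the Treg libraries of PBS and WT IL-2 mice with isotype or MHC II block, each bar the mean of 4 mice, each line the range from the lowest to the highest, and each point 1 WT IL-2 mouse. Under WT IL-2 the 4 block points lie below the 4 isotype points in all 12 panels, while under PBS the block and isotype bars of Icos, Tigit, Il10 and Foxp3 are close to each other or in the opposite order.

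Most of the genes that define Tregs as a lineage fell too. Of 15 Treg identity genes 13 fell in 8 libraries and 10 in 7, against 15.3% and 13.0% of all tested genes, and the medians were -0.43 and -0.37. The number that rose was 0 by edgeR and by DESeq2, and 0 at an unadjusted p under 0.05 in edgeR. In 10 of the 15 all block libraries were below all isotype libraries, against 11.5% of all tested genes. Foxp3 stood at 966, 986, 1014 and 1017 CPM under isotype and at 697, 865, 817 and 794 CPM under block (-0.33 ± 0.06 with adjusted p = 7.9e-05, and -0.27 ± 0.05 with adjusted p = 6.5e-04 in 7 libraries). The 10 genes that fell both times included Tnfrsf18, which encodes GITR, Lrrc32, which encodes the TGF-beta docking receptor GARP, Nrp1 and Izumo1r, which encodes folate receptor 4. Itgae, the integrin CD103 of tissue-resident T cells, fell by 0.48 in 7 libraries (adjusted p = 3.0e-04). Il2ra stood at 429, 415, 417 and 463 CPM under isotype and at 311, 372, 423 and 382 CPM under block, with overlap, and its fall of 0.21 in 8 libraries (adjusted p = 0.099) was 0.13 without block replicate 1 (adjusted p = 0.34) and lost its call without any 1 other library except block replicate 3, at -0.17 to -0.23. Its product CD25 is also the receptor by which the cells were selected. With the summed B cell and myeloid markers as a covariate in the 7 libraries, an alternative chosen after seeing the data, 10 of 15 identity, 18 of 29 effector and 16 of 31 TCR response genes fell. In that fit 14.4% of all tested genes fell.

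**Figure D3:**
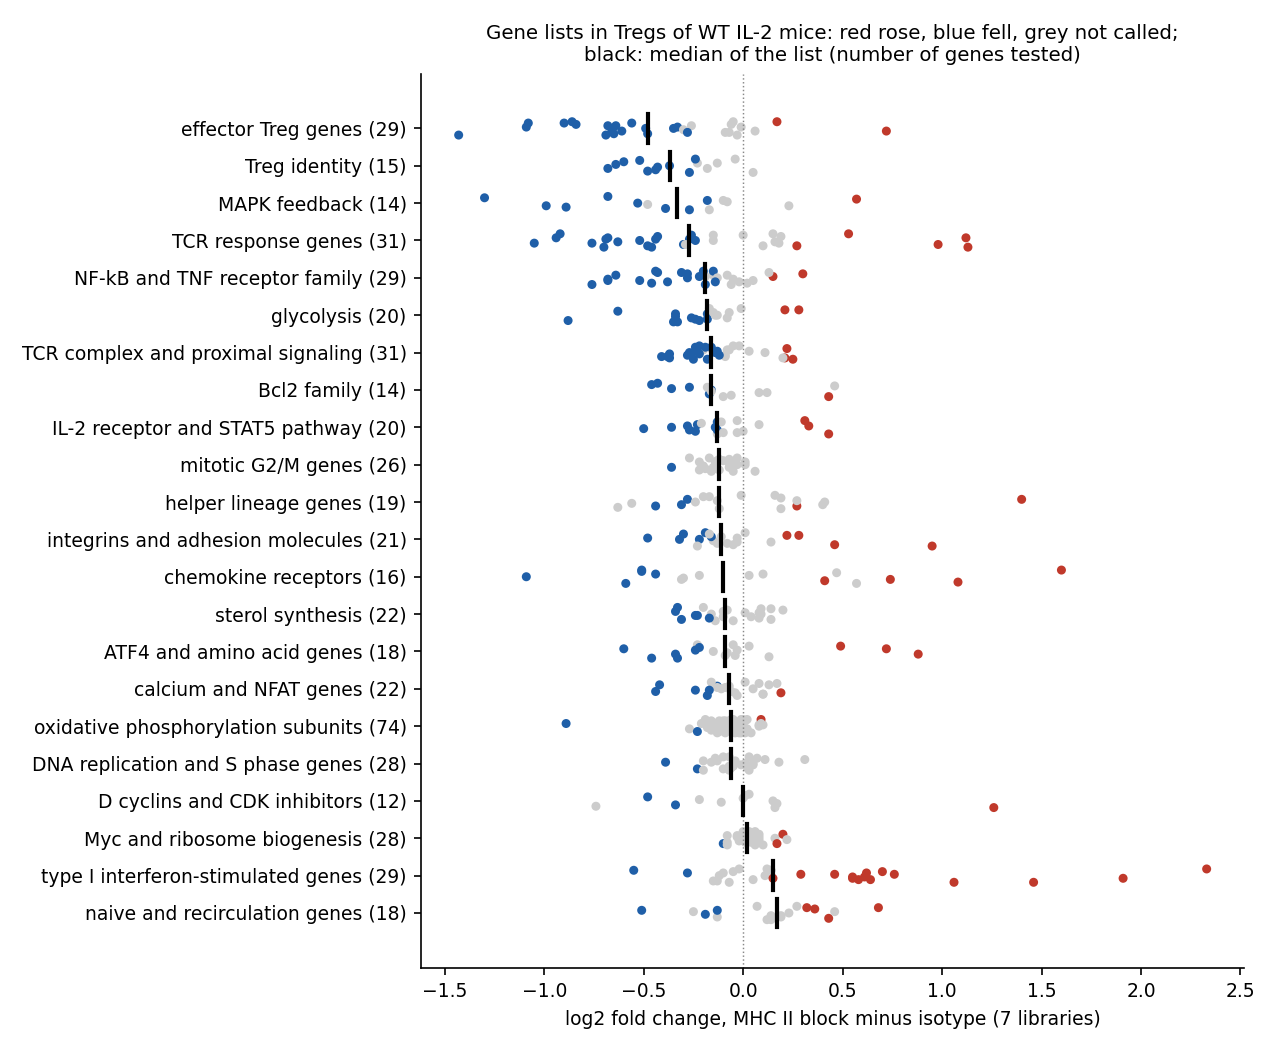
Log2 fold change, block minus isotype in 7 libraries, of every tested gene in each pathway list, with genes that rose in red, genes that fell in blue, genes not called in grey and a black bar at the median. Treg identity, effector Treg and TCR response genes lie mostly below 0 (medians -0.37, -0.48 and -0.27), interferon-stimulated genes mostly above 0 (median 0.15), and the mitotic, replication and oxidative phosphorylation genes are nearly all grey.

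Beyond the membrane receptors, the largest falls over 5 CPM included genes of diverse function. Nfil3, a leucine zipper transcription factor, stood at 169, 207, 193 and 191 CPM under isotype and at 77.0, 108, 92.7 and 84.0 CPM under block (-1.00 ± 0.08 in 7 libraries, adjusted p = 3.7e-09). Angptl2, a secreted angiopoietin-like protein, went from 112 to 152 CPM under isotype to 53.4 to 76.7 CPM under block (-1.06 ± 0.11, adjusted p = 1.5e-07). These 2 genes and Nos1, Cxcl2 and Fam81a had no overlap between the groups, with log2 fold changes of -1.12, -1.07 and -1.01 in 7 libraries for the last 3. Spp1, the secreted protein osteopontin, had the largest fall by value, -2.26 ± 0.74 (adjusted p = 0.031), yet isotype replicate 2 stood at 54.3 CPM and the other isotype libraries at 4.98 to 9.52 CPM. Without isotype replicate 2 Spp1 was at -0.95 (adjusted p = 0.32) in the remaining libraries and was not called. It was also not called at -1.99 when block replicate 4 was left out of the 7. The same isotype library was the highest for Vdr, the vitamin D receptor (-1.21, and -0.65 without it), and for Slc24a3, a sodium/calcium exchanger (-1.51, and -0.92 without it).

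Part of the machinery that carries the TCR signal fell as well. Of 31 genes of the TCR complex and proximal signalling 19 fell and 3 rose in 8 libraries and 17 fell and 3 rose in 7 (13.0% and 14.1% of all tested genes in 7), with medians of -0.14 and -0.16, and the number that fell in 7 libraries ranged from 12 to 19 as each further library was left out. Zap70, the kinase recruited to the activated receptor, stood at 313, 339, 324 and 314 CPM under isotype and at 232, 265, 239 and 246 CPM under block, without overlap (-0.37 ± 0.06 in 7 libraries, adjusted p = 1.2e-04). The receptor chains Cd3d, Cd3g and Cd247, the co-receptor Cd4 and the kinases Lck and Fyn fell both times. Malt1, the protease of the complex that leads to NF-kB, fell by 0.41 (adjusted p = 0.0081), but by 0.22 without isotype replicate 2. Among the risers were Grap2, an adaptor (0.21 ± 0.07 in 7 libraries, adjusted p = 0.024, and not called at 0.17 without block replicate 3), and Sos1, an activator of RAS whose call (0.22, adjusted p = 0.091) was lost without any of isotype replicates 1, 3a and 3b and block replicates 3 and 4, at 0.18 to 0.23.

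In the calcium and NFAT list 6 of 22 genes (27.3%) fell and 1 rose in 7 libraries, where 13.0% of all tested genes fell and 14.1% rose, and in 8 libraries 7 fell and 3 rose. Orai1, the pore of the store-operated calcium channel, went from 43.2 to 47.8 CPM under isotype to 32.6 to 36.7 CPM under block (-0.44 ± 0.07, adjusted p = 5.3e-05). Nfatc1, the NFAT factor that the TCR induces, fell by 0.42 (adjusted p = 5.8e-06), and Stim1, Stim2, Nfatc2 and Camk2d fell with them. Ppp3ca, a catalytic chain of calcineurin, rose (0.19 ± 0.05, adjusted p = 0.007).

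Genes of the IL-2 receptor and STAT5 pathway, in mice that had all received the same dose of IL-2, fell more often than they rose. Of 20 genes 12 fell and 4 rose in 8 libraries and 9 fell and 3 rose in 7, with medians of -0.14 and -0.13. The genes that rose were 20.0% and 15.0% of the list, near the 18.2% and 14.1% of all tested genes, of which 15.3% and 13.0% fell. Il2rb, the signalling beta chain, stood at 968, 1040, 977 and 997 CPM under isotype and at 767, 866, 847 and 825 CPM under block (-0.23 ± 0.07 in 7 libraries, adjusted p = 0.013). Of the feedback inhibitors that STAT5 induces, Socs3 fell by 0.50 (adjusted p = 1.2e-05) and Cish by 0.36 (adjusted p = 6.5e-05), both without overlap between the groups. Socs2, another of them, was at 54.7 to 68.1 CPM under isotype and 44.1 to 59.3 CPM under block, with overlap, and did not pass the test (-0.27 with adjusted p = 0.12, and -0.21 with adjusted p = 0.30 in 7 libraries). Bcl2, the survival factor, went the opposite way, from 133, 125, 124 and 117 CPM under isotype to 150.0, 146, 200.5 and 157 CPM under block (0.43 ± 0.10, adjusted p = 0.0022, and 0.28 without block replicate 3). Pim2, a survival kinase, rose by 0.31 in 7 libraries (0.19 and not called without block replicate 2), and the cytokine gene Osm by 0.33 (0.29 without isotype replicate 2 and 0.31 without block replicate 4, neither called).

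Few mitotic genes passed the test. Of all tested genes 18.2% rose and 15.3% fell in 8 libraries, and 14.1% rose and 13.0% fell in 7. Of 26 mitotic G2/M genes 0 rose and 1 fell, Cenpa, a centromere histone (-0.36 ± 0.09 in 7 libraries, adjusted p = 0.0046), both times, and the medians were -0.06 and -0.12. The 0 that rose were also 0 by DESeq2 and at an unadjusted p under 0.05 in edgeR. Mki67, which encodes the Ki-67 protein of dividing cells, stood at 262, 202, 207 and 302 CPM under isotype and at 307, 229, 219 and 311 CPM under block, with wide overlap (0.13 ± 0.13 with adjusted p = 0.51, and 0.06 ± 0.14 with adjusted p = 0.82 in 7 libraries). In the replication list 4 of 28 genes (14.3%) fell in 8 libraries, near the share of all tested genes, and 1 (3.57%) rose. In 7 libraries 2 (7.14%) fell: Mcm6, a helicase subunit (-0.39 ± 0.07, adjusted p = 3.0e-04), and Cdt1, which loads that helicase (-0.23 ± 0.05, adjusted p = 9.5e-04, and -0.10 without a call when block replicate 3 alone was left out of the 8).

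Metabolic lists divided. Of 20 glycolysis genes 14 fell and 2 rose in 8 libraries and 11 fell and 2 rose in 7, with medians of -0.19 and -0.18. Of all tested genes 15.3% and 13.0% fell, and 18.2% and 14.1% rose. Without block replicate 3 as well, 7 fell. Slc16a3, a lactate exporter, went from 16.3 to 25.0 CPM under isotype to 9.68 to 12.5 CPM under block (-0.88 ± 0.15 in 7 libraries, adjusted p = 1.6e-04), and Aldoc, an aldolase, fell by 0.63 (adjusted p = 4.6e-04). The glucose transporter Slc2a1, the hexokinase Hk1 and the dehydrogenases Gapdh and Ldha also fell both times, while Pdk1, a kinase that holds back pyruvate oxidation, rose (0.28 ± 0.07, adjusted p = 0.0072). The other riser, Pfkm, a phosphofructokinase (0.21, adjusted p = 0.041), lost its call without isotype replicate 2 (0.15) and without block replicate 4 (0.18). Of 74 tested oxidative phosphorylation subunits 6 fell in 8 libraries, and in 7 libraries 2 fell (Atp5d and Atp5g2) and 1 rose (Ndufs1), a smaller share than among all tested genes. These 3 calls, at -0.23, -0.89 and 0.09, were lost without isotype replicate 3a (-0.22, -0.62 and 0.08) and without block replicate 3 (-0.21, -0.78 and 0.11). In sterol synthesis 7 of 22 genes fell and 1 rose in 8 libraries, while in 7 libraries 6 fell and 0 rose by edgeR or DESeq2 (1 at an unadjusted p under 0.05), and the number that fell ranged from 3 to 8 as further libraries were left out, the lowest of which is near the 13.0% of all tested genes.

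The smaller remaining lists held genes that rose and genes that fell. Of all tested genes 14.1% rose and 13.0% fell in 7 libraries, and 18.2% rose and 15.3% fell in 8. In 7 libraries 2 of 28 Myc and ribosome biogenesis genes rose (Dkc1 and Gnl3) and 1 fell (Ddx21, not called without isotype replicate 2 or block replicate 2 or 4, at -0.09 each time). Of 12 D cyclins and CDK inhibitors Ccnd1 rose (8.33%) and Cdkn1a and Cdkn2c fell (16.7%), not far from the shares of all tested genes. Of 14 tested Bcl2 family genes 1 rose and 6 fell (42.9%, against 13.0% of all tested genes that fell). Of 18 tested ATF4 and amino acid genes 3 rose (16.7%, Asns, Chac1 and Atf5) and 6 fell (33.3%). In 8 libraries 3 Myc and ribosome biogenesis genes rose (10.7%) and 1 fell (3.57%), both below the shares of all tested genes. Of the D cyclins and CDK inhibitors 2 rose (16.7%) and 4 fell (33.3%), and of the Bcl2 family genes 2 rose (14.3%) and 5 fell (35.7%). Of the ATF4 and amino acid genes 3 rose (16.7%) and 7 fell (38.9%). Asns (0.72) and Chac1 (0.88) were not called without block replicate 4 (0.31 and 0.44) or isotype replicate 3a (0.67 and 0.93), nor Chac1 without isotype replicate 1 (0.67), and Cdkn1a (-0.34) was not called without isotype replicate 2, 3a or 3b or block replicate 3 or 4 (-0.26 to -0.34). Ccnd1, a D cyclin scarce in T cells, stood at 1.81 to 2.61 CPM under isotype and 3.91 to 10.2 CPM under block, highest in block replicate 1. Of 18 naive and recirculation genes 5 rose and 4 fell in 8 libraries, and 4 (22.2%) rose and 3 (16.7%) fell in 7, beside 14.1% and 13.0% of all tested genes. The counts of the 7 libraries became 7 and 1 without isotype replicate 1, 4 and 1 without block replicate 4, and 7 and 3 with the marker covariate. In the covariate fit 14.8% of all tested genes rose and 14.4% fell. Satb1, a chromatin organiser of resting T cells, rose (0.36 ± 0.09, adjusted p = 0.0056), as did Ly6c1 (0.68 ± 0.13, adjusted p = 4.2e-04), while Ccr7, the lymph node homing receptor, fell (-0.51 ± 0.14, adjusted p = 0.0095). The remaining calls of the list in 7 libraries, Il7r (0.32), Id3 (-0.19) and Foxo1 (-0.13), were each lost without block replicate 4 (0.30, -0.16 and -0.09) and in 2 to 4 other such comparisons.

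Among the pathway lists, that of genes induced by type I interferon, the antiviral cytokine, had the largest share of genes that rose. Of 29 tested interferon-stimulated genes 14 rose and 4 fell in 8 libraries and 15 rose and 2 fell in 7, against 18.2% and 14.1% of all tested genes that rose, and the median was 0.15 both times. In 13 of the 29 every block library was above every isotype library, which held for 11.7% of all tested genes. The IFIT genes, whose products bind foreign RNA, moved most. Ifit3 stood at 15.4, 17.6, 17.5 and 13.5 CPM under isotype and at 68.1, 61.8, 63.0 and 55.7 CPM under block (1.96 ± 0.15 with adjusted p = 3.8e-10, and 1.91 ± 0.16 with adjusted p = 2.3e-09 in 7 libraries). Ifit1 stood at 57.5, 57.7, 59.3 and 55.5 CPM under isotype and at 126, 172, 164 and 137 CPM under block (1.46 ± 0.15 in 7 libraries, adjusted p = 1.9e-07). Isg15, a ubiquitin-like modifier, stood at 32.2 to 38.8 CPM under isotype and 50.8 to 62.3 CPM under block (0.64 ± 0.10, adjusted p = 7.1e-05). The isotype libraries were nearly level for all 3 genes, and block replicate 1 was within the range of the other block libraries or next to it. Ifit3b rose by 2.33, but it is a near copy of Ifit3 and the division of reads between them is uncertain.

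The promoters of these 3 genes are shown because each holds GAAANNGAAA, the core of the interferon-stimulated response element to which the factor complex activated by type I interferon binds. The sequences are again the 250 bases before the start in RefSeq on GRCm38.p6, chr19:34640639-34640888 on the plus strand for Ifit1, chr19:34583279-34583528 on the plus strand for Ifit3 and chr4:156200819-156201068 on the minus strand for Isg15, with matches on either strand in capitals and overlapping matches joined.
Ifit1: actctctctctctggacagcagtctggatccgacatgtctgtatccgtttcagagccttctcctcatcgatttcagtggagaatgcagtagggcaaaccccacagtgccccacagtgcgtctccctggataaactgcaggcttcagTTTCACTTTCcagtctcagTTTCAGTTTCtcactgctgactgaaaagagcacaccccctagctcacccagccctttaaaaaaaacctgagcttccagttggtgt
Ifit3: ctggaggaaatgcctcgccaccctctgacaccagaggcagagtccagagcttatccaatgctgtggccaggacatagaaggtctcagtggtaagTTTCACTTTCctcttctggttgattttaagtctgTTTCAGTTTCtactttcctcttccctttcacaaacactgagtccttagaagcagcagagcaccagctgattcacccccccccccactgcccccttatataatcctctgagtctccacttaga
Isg15: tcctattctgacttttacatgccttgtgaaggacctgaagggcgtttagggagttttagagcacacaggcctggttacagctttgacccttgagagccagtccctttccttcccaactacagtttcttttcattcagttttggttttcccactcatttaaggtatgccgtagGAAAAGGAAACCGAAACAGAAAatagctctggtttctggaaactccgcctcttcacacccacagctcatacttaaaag
Ifit1 and Ifit3 held 2 matches each, read on the opposite strand, and Isg15 held 3 that overlap. Of all tested promoters 2.87% held the motif, and of the interferon-stimulated genes with a promoter 11 of 21 (52.4%) held it. It did not separate the members that rose from the rest: 5 of 10 that rose both times held it, and 6 of 11 others.

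Some interferon-stimulated genes went the opposite way. Ifi27l2a stood at 294, 314, 301 and 282 CPM under isotype and at 201, 219.9, 194 and 196 CPM under block (-0.55 ± 0.13 in 7 libraries, adjusted p = 0.003), and Oas1a, an oligoadenylate synthetase, fell by 0.28 (adjusted p = 0.043, and -0.25 without a call when block replicate 3 was also left out). Another enzyme of the family, Oasl2, rose from 4.77 to 7.05 CPM under isotype to 10.9 to 17.4 CPM under block (1.06 ± 0.18, adjusted p = 1.3e-04). The number that rose in 7 libraries stayed between 11 and 14 as each further library was left out.

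Tnf, the inflammatory cytokine and itself a TCR response gene, rose while the NR4A genes fell. It stood at 67.9, 61.3, 76.3 and 73.5 CPM under isotype and at 140.1, 145, 136 and 132 CPM under block, with no overlap and little spread in either group (0.99 ± 0.10 with adjusted p = 3.4e-08, and 0.98 ± 0.10 with adjusted p = 1.9e-07 in 7 libraries). The chemokine genes Ccl3 and Ccl4, which T cells, NK cells and myeloid cells share, rose by 1.13 and 1.12 in 7 libraries (adjusted p = 3.0e-04 and 2.1e-04). Ccl3 stood at 4.92 to 8.69 CPM under isotype and at 29.9, 15.8, 13.9 and 13.4 CPM under block, and the NK cell markers moved the same way beside it. Ifng (0.27, adjusted p = 0.097) lost its call when any further library other than isotype replicate 3a was left out of the 7, at 0.21 to 0.32. Xcl1 (0.53, adjusted p = 0.055) lost it without isotype replicate 2 (0.48) or 3b (0.46) or block replicate 2 (0.27).

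The receptor genes Ccr9, Il12rb2 and Itga1 rose with little spread and without block replicate 1 standing out, each in a list with members that fell. Ccr9, the gut homing receptor, stood at 10.1, 7.96, 9.96 and 8.31 CPM under isotype and at 17.3, 19.3, 19.8 and 18.6 CPM under block (1.08 ± 0.16 in 7 libraries, adjusted p = 2.5e-05). Il12rb2, the IL-12 receptor chain of type 1 helper cells, stood at 3.12, 3.51, 3.69 and 3.35 CPM under isotype and at 9.03, 9.59, 8.64 and 8.85 CPM under block (1.40 ± 0.15, adjusted p = 2.7e-07). Itga1, the collagen-binding integrin chain CD49a, stood at 3.29 to 3.56 CPM under isotype and 6.16 to 7.23 CPM under block (0.95 ± 0.21, adjusted p = 0.0019). In each of the 3 genes the lowest block library lay clear of the highest isotype library. The summed NK cell and dendritic cell markers were likewise higher in every block library than in any isotype library. Their part in these rises was not tested. Cxcr6, a receptor of tissue T cells, rose by 0.74 (adjusted p = 0.0061) and was lowest among the block libraries in replicate 1. In the whole chemokine receptor list 6 of 16 genes rose and 6 fell in 8 libraries, and 4 (25.0%) rose and 5 (31.2%) fell in 7, beside 14.1% and 13.0% of all tested genes: Ccr6, Ccr9, Cxcr6 and Ackr3 against Ccr4, Ccr7, Ccr8, Cxcr4 and Cxcr5. Ccr6 (0.41) lost its call without isotype replicate 1 (0.32) or block replicate 4 (0.34). Ackr3, a chemokine-scavenging receptor, stood below 1 CPM in all isotype libraries and rose by 1.60 (adjusted p = 0.0016). Among 21 integrins and adhesion molecules 3 rose and 8 fell in 8 libraries, and in 7 libraries 4 rose (Itga1, Itgb3, Cd226 and Cd96) and 6 fell, with Itgb3 (0.28) not called without isotype replicate 2 (0.20) or block replicate 4 (0.24) and Cd96 (0.22) not called without isotype replicate 2 or 3b or block replicate 2 or 3 (0.18 to 0.22). Among 19 helper lineage genes 3 rose and 6 fell in 8 libraries, and 2 rose and 3 fell (15.8%) in 7, where 14.1% and 13.0% of all tested genes rose and fell. With the marker covariate 6 rose and 4 fell in 7, where 14.8% of all tested genes rose and 14.4% fell. In 7 libraries Il12rb2 and Ifng rose and Gata3, Il4ra and Cxcr5 fell, with Gata3, the type 2 factor that also marks tissue Tregs, at -0.28 ± 0.07 (adjusted p = 0.0028).

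Genes known from other cell types were among the largest rises, beside Ifit3b and Ifit3. Gzma, a granzyme of NK cells and cytotoxic T cells, stood at 8.32, 4.84, 10.7 and 6.31 CPM under isotype and at 83.9, 49.9, 44.8 and 40.3 CPM under block, without overlap (2.57 ± 0.27 in 7 libraries, adjusted p = 2.4e-07). Klrd1, an NK receptor chain, rose by 1.58 (adjusted p = 1.2e-07), and 8 of 9 tested NK markers rose in 7 libraries with a median of 1.10. Jchain, which joins secreted antibodies, stood at 580.5, 622, 632 and 709 CPM under isotype and at 2951, 1945, 1443 and 2623 CPM under block (1.66 ± 0.32, adjusted p = 5.6e-04), and all 5 plasma cell markers rose. Ly6c2, found on monocytes, plasma cells and memory T cells, went from 28.4 to 36.3 CPM under isotype to 81.9 to 241 CPM under block (2.23 ± 0.27, adjusted p = 1.6e-06). The dendritic cell genes Flt3 and Itgax rose by 1.84 and 1.82, with 7 of 8 tested dendritic cell markers. For each gene named here the lowest block library was above the highest isotype library, which held for 5 of the 8 dendritic cell markers.

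Several neutrophil and monocyte genes lost their calls as single libraries were left out, while 9 of 14 myeloid markers rose in 7 libraries (5 to 10 as each further library was left out). S100a9, an abundant neutrophil protein, stood at 0.0653 to 2.07 CPM under isotype and at 99.1, 3.29, 1.65 and 11.4 CPM under block, with overlap. Its log2 fold change was 4.94 in 8 libraries, 2.54 in 7 (adjusted p = 0.076) and 1.40 without a call when block replicate 4 was left out as well. S100a8 (2.51, then 1.22) and Ngp (2.61, then 0.83) did the same, and all 3 also lost their calls without isotype replicate 1, 2 or 3b, and Ngp without 3a, at values from 2.10 to 3.00. Csf3r, the granulocyte growth factor receptor, was at 1.93 in 7 libraries (adjusted p = 0.095) and kept its call in a single further comparison, that without isotype replicate 3a, at 3.47. Lyz2, lysozyme of myeloid cells, was at 4.01 in 8 libraries, 2.07 in 7 (adjusted p = 0.012) and 1.53 without a call when block replicate 4 was left out as well, and Csf1r, the macrophage growth factor receptor, at 5.39, 2.05 and 1.40. Cd300a and Tgfbi kept their calls in each of these comparisons, at 2.16 and 2.11 in 7 libraries. B cell markers that rose in 7 libraries were Cd79a, Blk, Fcrla and Ly6d, 4 of 15, against 15 of 15 in 8 libraries. Ly6d (1.71, adjusted p = 5.3e-04) kept its call as each further library was left out. Without block replicate 4 the others were not called, at 0.76 for Cd79a, 0.59 for Blk and 0.86 for Fcrla, against 0.97, 0.74 and 1.21 in 7 libraries. Blk was also not called without isotype replicate 2 (0.67), nor Cd79a without isotype replicate 1, 2 or 3b or block replicate 2 (0.85 to 0.98). Of 11 MHC class II genes 2 rose in 7 libraries, H2-DMb1 (0.91, and 0.70 without a call when block replicate 4 was also left out) and Ciita (0.84, whose call was lost in 5 further comparisons at 0.62 to 0.85).

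The block was also compared within PBS mice, in libraries that it does not share with the WT IL-2 comparison. There 1752 genes (14.1%) differed between block and isotype, 745 (6.01%) higher and 1007 (8.13%) lower. Of the 31 TCR response genes 15 fell and 2 rose in PBS mice, with a median of -0.42. Without block replicate 1 the effect differed between WT IL-2 and PBS for 11 of the 31, against 17.3% of all tested genes, with 7 more positive and 4 (Cd5, Tnfrsf9, Tnfrsf4 and Icos) more negative under WT IL-2. Cd5 rose in PBS mice and fell under WT IL-2, and Xcl1 fell in PBS mice and rose under WT IL-2. Nr4a1 and Nr4a3 gave nearly the same log2 fold change in both settings, at -0.75 for Nr4a1 and -1.14 for Nr4a3 in PBS mice, and the differences of the effects, WT IL-2 minus PBS in 31 Treg libraries without block replicate 1, were 0.05 ± 0.16 (adjusted p = 0.88) and 0.08 ± 0.21 (adjusted p = 0.85). For Cd83 the PBS effect was -1.13 and the difference 0.21 ± 0.24 (adjusted p = 0.62). Tnf rose by 0.97 in PBS mice, a difference of 0.01 ± 0.14 (adjusted p = 0.97), and Ifit3 by 1.82, a difference of 0.09 ± 0.22 (adjusted p = 0.83). Of 29 interferon-stimulated genes 9 rose in PBS mice, and 0 fell by edgeR, by DESeq2 and at an unadjusted p under 0.05 in edgeR.

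The effector and identity genes behaved differently in the absence of IL-2. The effect of the block under WT IL-2 differed from that under PBS for 2434 of 12390 genes (19.6%), 1445 (11.7%) of them more positive and 989 (7.98%) more negative under WT IL-2. Without block replicate 1 there were 2141 (17.3%), of which 1265 (10.2%) were more positive and 876 (7.09%) more negative under WT IL-2. With all libraries 59.4% of the differing genes were more positive, against 49.2% in a limma fit of FPKM. Among the 15 Treg identity genes the effect was more negative under WT IL-2 for 10 and more positive for 0 (also 0 by DESeq2 and at an unadjusted p under 0.05), while in PBS mice edgeR and DESeq2 called 0 of the 15 and the median was 0.00. At an unadjusted p under 0.05 edgeR gave 1 that was higher and 1 that was lower in PBS mice. Foxp3 had a log2 fold change of 0.13 in PBS mice (adjusted p = 0.15), and the effects differed by -0.40 ± 0.07 (adjusted p = 6.8e-04). Of 29 effector Treg genes 6 fell and 2 rose in PBS mice, and the effect was more negative under WT IL-2 for 15 and more positive for 2. The genes with a more positive effect were 4 with all libraries and 5 when isotype PBS replicate 1 was left out beside block replicate 1, with 15 more negative each time. Tigit had 0.23 in PBS mice (adjusted p = 0.16) and a difference of -1.13 ± 0.14 (adjusted p = 1.5e-05). Lag3 rose by 0.66 in PBS mice (adjusted p = 0.035) and differed by -1.50 ± 0.29 (adjusted p = 0.0012). Nos1, nitric oxide synthase of neurons, went from a rise of 1.28 under PBS (adjusted p = 0.0048) to a fall under WT IL-2, the difference being -2.39 ± 0.38 (adjusted p = 1.6e-04).

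Other receptors and signalling genes showed the same difference. It was -0.61 ± 0.14 for Icos (adjusted p = 0.0051), -0.41 ± 0.12 for Ctla4 (adjusted p = 0.018) and -0.75 ± 0.21 for Il10 (adjusted p = 0.018), whose log2 fold changes in PBS mice were -0.07, -0.23 and -0.11 and did not pass the test. Zap70 differed by -0.48 ± 0.08 (adjusted p = 4.4e-04), and 12 of the 31 genes of the TCR complex and proximal signalling were more negative under WT IL-2 against 3 more positive, or 13 against 5 when isotype PBS replicate 1 was also left out. Areg and Ccr8 fell in both settings and fell further under WT IL-2, with differences of -0.89 ± 0.15 (adjusted p = 3.8e-04) and -0.50 ± 0.14 (adjusted p = 0.021). Egr1 and Spry2 fell in PBS mice, by 0.58 and 0.82, and the effects differed by 0.73 ± 0.13 and 1.39 ± 0.26 (adjusted p = 6.2e-04 and 9.1e-04).

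**Figure D4:**
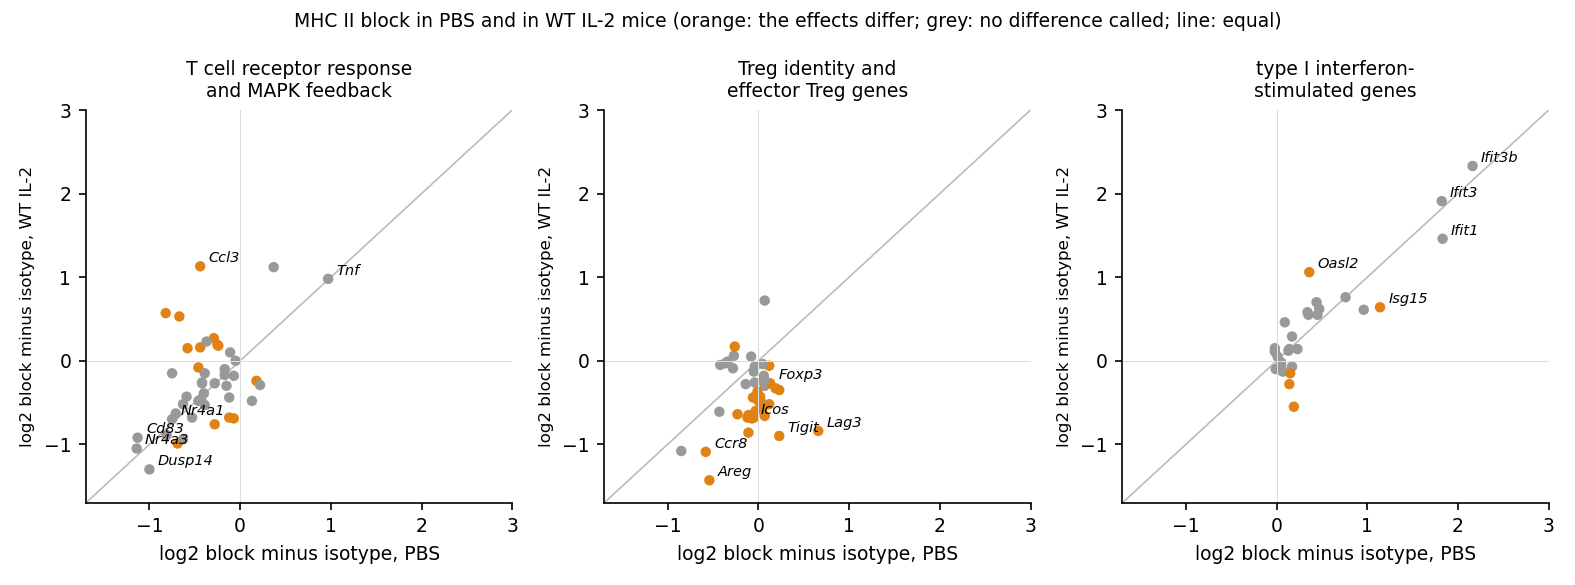
Log2 fold change of block minus isotype in WT IL-2 mice (7 libraries, vertical axis) against that in PBS mice (horizontal axis) for the tested genes of the T cell receptor response and MAPK feedback lists, of the Treg identity and effector Treg lists and of the interferon-stimulated genes, each in a panel of its own with 1 point a gene and genes whose effects differ drawn in orange and the rest in grey. Nr4a1, Nr4a3 and Cd83 lie near the diagonal, while most effector Treg and Treg identity genes lie below it, such as Tigit at -0.90 under WT IL-2 and 0.23 under PBS.

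Transcripts of other cells also moved differently in the PBS comparison, and their values stand beside these differences. In PBS mice 0 plasma cell and 0 dendritic cell markers passed the test by edgeR or DESeq2 (2 dendritic cell markers were lower at an unadjusted p under 0.05), 10 of 15 B cell markers (median -1.57), 9 of 11 MHC class II genes (median -1.27) and 5 of 10 NK cell markers (median -0.62) fell, and isotype replicate 1 of that group had a B cell marker sum of 1080 CPM. Leaving out that library as well gave 2582 of 12322 genes (21.0%) with differing effects. Gzma had -0.71 in PBS mice (adjusted p = 0.34) and a difference of 3.29 ± 0.50 (adjusted p = 1.2e-04), and Jchain -0.31 and 1.96 ± 0.44 (adjusted p = 0.004). Il12rb2 (0.12 in PBS mice, difference 1.28 ± 0.22, adjusted p = 3.9e-04), Ccr9 (0.01 and 1.07 ± 0.22, adjusted p = 0.0021) and Itga1 (-0.01 and 0.94 ± 0.31, adjusted p = 0.046) rose under WT IL-2, with log2 fold changes in PBS mice that did not pass the test.

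H16R and the 3x mutein are human IL-2 proteins with substitutions that weaken receptor signalling, and the mice received them at the same dose as WT IL-2. Under H16R the block changed 3799 genes (30.7%), 1913 (15.4%) higher and 1886 (15.2%) lower, and under 3x 6704 (54.1%), 3367 (27.2%) higher and 3337 (26.9%) lower. The effect under WT IL-2 differed from that under H16R for 2908 genes (23.5%), or 3184 (25.8%) without block replicate 1, which was 1699 when block replicate 3 was left out too. From that under 3x it differed for 5421 (43.8%), or 5492 (44.5%) without block replicate 1, and 5 of 5 plasma cell markers rose under the block with each mutein as well. The split of these differences depended on scaling: with all libraries 46.5% were more positive against H16R, 36.0% with total counts in place of TMM and 32.8% with limma on FPKM, and against 3x 52.6%, 44.2% and 41.9%.

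The effector Treg genes had medians of opposite sign. They had a median of -0.48 under WT IL-2, 0.10 under H16R (12 rose and 8 fell) and 0.35 under 3x (18 rose and 5 fell), and the effect was more negative under WT IL-2 for 19 of 29 genes against H16R and 24 of 29 against 3x. Tigit had mean levels of 302 CPM under isotype and 157 CPM under block with WT IL-2, 283 and 323 CPM with H16R, and 211 and 306 CPM with 3x (n = 4 each). Lag3, whose fall under WT IL-2 was smaller without isotype replicate 2, had means of 192 and 422 CPM with H16R and 92.5 and 356 CPM with 3x. The differences of its effects were -1.98 against H16R and -2.79 against 3x, and for Il10 they were -1.32 and -1.63. In the TCR response list 12 of 31 genes fell and 8 rose with H16R (median 0.00) and 14 fell and 12 rose with 3x (median -0.11), and without block replicate 1 the effects differed from those under WT IL-2 for 16 and 20 of the 31. The NR4A genes fell under all treatments: Nr4a1 by 0.40 with H16R and 0.76 with 3x, and Nr4a3 by 0.76 and 1.08. Of the 15 identity genes 5 fell with H16R and 10 with WT IL-2, and for 9 the effect was more negative under WT IL-2. With 3x 8 of the 15 fell and 3 rose, and without block replicate 1 the effect was more negative under WT IL-2 for 8 and more positive for 2.

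Cell division genes differed between the muteins and WT IL-2. Under the block 24 of 26 mitotic genes rose with H16R (median 0.50) and 26 of 26 with 3x (median 0.59), while 0 rose with WT IL-2, and the effects differed for 20 and 23 of the 26. Replication genes followed, with 22 of 28 rising with H16R and 25 with 3x, and effects that differed for 22 and 24. Of the 74 oxidative phosphorylation subunits 32 rose with H16R and 42 with 3x against 1 with WT IL-2. The naive and recirculation genes were the mirror image: 11 of 18 fell with H16R and 16 with 3x, medians -0.25 and -0.53, and the effect under WT IL-2 was more positive for 13 and 17 of them. Of 29 interferon-stimulated genes 14 rose with H16R and 19 with 3x. Markers of other cells moved beside these lists: 2 of 7 erythroid markers rose with H16R and 7 with 3x (medians 1.26 and 2.59) against 2 with WT IL-2 in 7 libraries (median 0.48), and the 5 plasma cell markers had medians of 1.52 and 2.99 against 1.56, with 4 of the 5 effects differing between 3x and WT IL-2. Their part in the result was not tested.

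**Figure D5:**
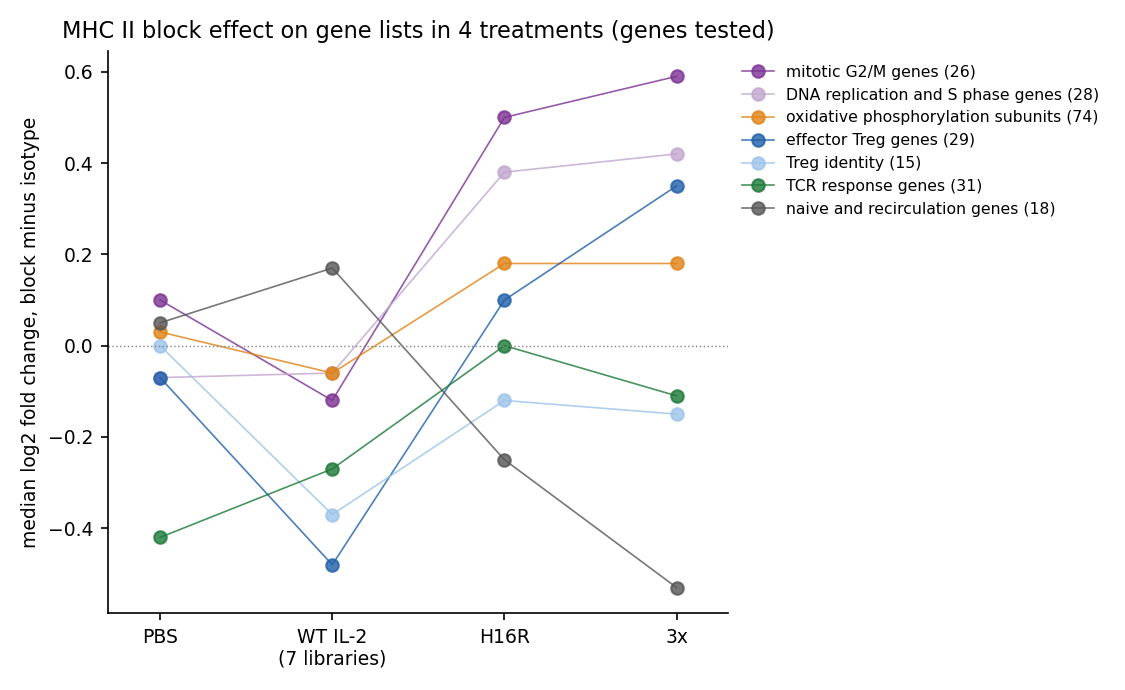
Median log2 fold change of block minus isotype for 7 gene lists in Tregs of PBS, WT IL-2 (7 libraries), H16R and 3x mice, with 1 line a list and dots at the treatments. Effector Treg genes go from -0.07 under PBS to -0.48 under WT IL-2, 0.10 under H16R and 0.35 under 3x, and mitotic genes stand at 0.10, -0.12, 0.50 and 0.59.

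The Tcons of WT IL-2 mice, 2 libraries a group for which no test was run, showed several of the same orders. Ifit1 stood at 11.2 and 17.5 CPM under isotype and 105 and 107 CPM under block, and Tnf at 31.8 and 41.1 against 104 and 118 CPM. Nr4a1 stood at 535 and 577 CPM against 362 and 413 CPM, and Areg at 8.87 and 25.0 against 2.29 and 4.42 CPM. The groups were separate for all 4 genes, and in the direction seen in Tregs. These are genes that had changed in Tregs, and the share of all genes with separate Tcon groups was not counted. With 2 libraries a group, nothing is read from that separation. Foxp3, scarce in the unbound fraction, stood at 98.2 and 183 CPM under isotype and 46.8 and 67.9 CPM under block. Plasma cell markers, by contrast, summed to 2682 and 1351 CPM under isotype and 2390 and 2516 CPM under block, with overlap, while myeloid markers summed to 326 and 283 against 1125 and 792 CPM and neutrophil markers to 75.0 and 41.6 against 419 and 544 CPM.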

How the data were processed

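RNA from bead-selected spleen Tregs and Tcons was made into stranded mRNA libraries by the authors, who aligned the reads with OSA in Omicsoft Array Suite to mouse genome B38 and deposited expected counts per gene from RSEM together with FPKM values, which are counts scaled for gene length and for mapped reads. The gene model is named as GENCODE v19 in the methods, and 96.6% of the 53345 gene identifiers matched GENCODE vM21 on GRCm38, which supplied the gene names and types. The deposited tables of log2 fold changes, Wald statistics and FDR from the authors' DESeq2 comparisons were not used.

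Expected counts were rounded to whole numbers (72.6% of nonzero values already were). Protein-coding genes with CPM over 0.5 in at least 4 libraries were kept, and genes with empty cells were left out. All 32 Treg libraries (8 groups of 4 mice) were fitted with edgeR 4.0.16 (TMM scaling, quasi-likelihood test, Benjamini-Hochberg adjusted p under 0.1, 1 mean per group), and again without MHC II block WT IL-2 replicate 1, with the differences between treatments as interaction contrasts in the same fits. CPM values are TMM-scaled. Summed marker CPM were compared by exact two-sided permutation tests, for which the smallest p is 0.0286. The 8 libraries held 31.25 to 51.24 M counts. The study's methods give 4 mice per group, and no pair of libraries in a group agreed within sampling noise. That check would find copies of a library, but cannot tell whether 2 libraries came from 1 mouse. Isotype replicates 1 and 3a (chi-square per gene 6.30) and 2 and 3b (12.9) were closer than the other isotype pairs (25.5 to 29.5). Replicates 3a and 3b carry the same replicate number in their titles.

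The members and the 33 gene lists were chosen with earlier results of these data known. Genes named singly are the 12 largest rises and 12 largest falls over 5 CPM called with the same sign in both fits (ranked without replicate 1), the 5 largest rises over all libraries, 12 fixed genes and the 2 largest called changes of each list, except for a few genes that are not reported here. A further 47 of the 127 were chosen after their values were seen, among them Nr4a2, Cd83, Tigit, Lag3, Tnf, Ifit1, Isg15, Cxcr6, Egr1, Il2rb, Cish and the members named behind counts of 5 or fewer. Alternatives were DESeq2 1.42.0, total counts or DESeq2 size factors as scaling, other filters, all gene types, a replicate block, only the WT IL-2 libraries, limma 3.58.1 on log2(FPKM + 1) and leaving out each library. A marker covariate in 31 libraries and the leaving out of further libraries beside replicate 1 were chosen after seeing the data. The edgeR test of block against isotype under WT IL-2 was checked on simulated counts, with and without replicate 1. The tests of differences between treatments, the permutation tests and the alternatives were not checked in this way. Software was R 4.3.3 and Python 3.11.15.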

Additional observations from a re-analysis of the deposited data

Results flagged for a closer look

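A sample far from the others of its group was looked for in 276 groups of 4 libraries (127 genes and 11 marker sums, isotype and block), by the share of the group's range that separates the highest or lowest library from its nearest neighbour. Dixon's 95% limit on that share, which chance passes in about 1 of 20 groups, was passed in 33 groups, 26 of them through MHC II block replicate 1. That library had been singled out for its RNA of other cells and several of these genes were chosen through it, so its number of such groups is a description and is not set against the chance rate. That library was the highest of its group for S100a9 (0.900), S100a8 (0.869), Cd300a (0.877), Tgfbi (0.917), Lyz2 (0.904), Csf1r (0.965), Csf3r (0.984), C1qb (0.985), Cd5l (0.989), C1qc (0.986), C1qa (0.982), Fcna (0.987), Ccl3 (0.856), Osm (0.909), Axl (0.952), Cd79a (0.866), Blk (0.871) and Ciita (0.837). The same held for the sums of B cell (0.905), myeloid (0.883), neutrophil (0.894), red pulp macrophage (0.986) and CD8 T cell markers (0.911). It was the lowest for Nr4a3 (0.841), Cxcr6 (0.873) and Il7r (0.848). Isotype replicate 2 stood apart for Icos (0.841), Spp1 (0.908), Slc24a3 (0.838) and Slc16a3 (0.863), isotype replicate 3a for Csf3r (0.931) and Blk (0.860), and isotype replicate 3b for Orai1 (0.887).

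The effect of the block differed between treatments by a test of the difference itself for 2434 genes against PBS, 2908 against H16R and 5421 against 3x, with all libraries. Of the 127 genes named singly 81 differed from PBS with and without block replicate 1, beside 19.6% and 17.3% of all tested genes, but they were chosen for their change under WT IL-2 or after their values were seen, so nothing is read from that count. The values that follow are the log2 effect under WT IL-2 minus that under PBS, without replicate 1.

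More negative under WT IL-2 were the receptors, cytokines and signalling genes Foxp3 (-0.40), Icos (-0.61), Ctla4 (-0.41), Il10 (-0.75), Zap70 (-0.48), Prdm1 (-0.52), Areg (-0.89), Ccr8 (-0.50), Tigit (-1.13), Lag3 (-1.50), Tnfrsf9 (-0.56), Tnfrsf4 (-0.48), Tnfrsf1b (-0.63), Itgae (-0.48), Socs3 (-0.36), Malt1 (-0.42), Orai1 (-0.33), Nfatc1 (-0.37) and Dusp4 (-0.30). So were Slc24a3 (-1.63), Vdr (-1.54), Nos1 (-2.39), Angptl2 (-1.28), Fam81a (-1.18), Nfil3 (-0.67), Slc16a3 (-0.98), Aldoc (-0.60), Cenpa (-0.52), Mcm6 (-0.38), Cdkn2c (-0.54), Isg15 (-0.50), Oas1a (-0.43) and Ifi27l2a (-0.74).

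More positive under WT IL-2 were Bcl2 (0.45), Ccr9 (1.07), Itga1 (0.94), Il12rb2 (1.28), Cxcr6 (0.92), Egr1 (0.73), Ifng (0.56), Xcl1 (1.20), Ccl3 (1.58), Spry2 (1.39), Tnfrsf1a (0.31), Id2 (0.43), Oasl2 (0.71), Pim2 (0.44), Ppp3ca (0.32), Ccr6 (0.62), Ackr3 (1.84), Cd226 (0.62), Ccnd1 (1.49), Dkc1 (0.27), Gnl3 (0.34) and Atf5 (0.72). Genes known from other spleen cells were more positive as well: Ngp (4.40), Gzma (3.29), S100a9 (5.47), S100a8 (5.43), Ly6c2 (2.31), Cd300a (3.06), Tgfbi (3.88), Lyz2 (4.14), Csf1r (3.60), Csf3r (4.96), C1qb (5.96), Cd5l (6.28), C1qc (6.33), C1qa (6.39), Fcna (5.62), Tnfrsf17 (1.84), Jchain (1.96), Klrd1 (2.32), Flt3 (2.14), Itgax (2.53), Ly6d (2.46), H2-DMb1 (2.14), Cd79a (2.41), Blk (1.33), Fcrla (2.30) and Ciita (2.21). In this last group isotype PBS replicate 1 had a share: without it the differences of C1qb, Cd5l, C1qc and C1qa were 0.25, 2.05, 1.39 and 2.00 and were not called, and the markers with a more positive effect went from 13 to 8 for B cells (median 2.46 to 1.26), from 13 to 10 for myeloid cells (1.82 to 1.07) and from 7 to 4 for neutrophils (4.96 to 3.74).

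Immunoglobulin genes, which lie outside the protein-coding genes tested, took a mean of 3.66% of the expected counts under block, above the isotype libraries.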

How the results depend on the processing

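The count of 4152 called genes lay between 3119 and 4595 under all other settings with 8 libraries (total counts 4144, DESeq2 size factors 4175, DESeq2 4300, no filter 4412, CPM over 1 in 8 libraries 3818, all gene types 4595, empty cells as 0 4151, limma on FPKM 3881, marker covariate 3537, only the WT IL-2 libraries 3119). Of called genes 668 differed at least 2-fold (383 without block replicate 1), as did 714 against PBS (531), 187 against H16R (171) and 515 against 3x (485). Leaving out 1 WT IL-2 library gave 3352 to 4285 genes, and 2258 to 3314 beside replicate 1. For the differences these ranges were 2112 to 2547 and 1603 to 2125 against PBS (2615 and 2582 without isotype PBS replicate 1), 2217 to 3184 and 1699 to 3336 against H16R (1699 without block replicate 3), and 4887 to 5492 and 4584 to 5557 against 3x. The median log2 fold change of all genes moved between 0.00 and 0.02 with scaling.

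The replicate block gave 3953 genes, 2923 without block replicate 1, and 2195, 2777 and 5326 for the differences against PBS, H16R and 3x (1839, 2616 and 5230 without it). Deviations of same-numbered libraries had correlations of -0.27 to 0.12 over 4 pairs. Isotype replicates 3a and 3b share a number and were both set against block replicate 3, so block replicate 4 had no partner. The other pairs ranged from -0.21 to 0.29, the highest being block replicate 4 with isotype replicate 3b. So few pairs under a doubtful numbering cannot tell whether the numbers pair the mice.

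Of 2525 values of the 127 genes under alternatives with all libraries, 2412 kept direction and side of the threshold, 90 lost and 14 gained a call and 9 reversed. Without replicate 1 these were 1354, 158, 1 and 10 of 1523. With the marker covariate Mki67 was -0.03, C1qb -0.95, Cd5l -0.42, C1qc -0.74, C1qa -0.97, Fcna -1.28 and Axl -0.47 in 8 libraries, and in 7 Mki67 -0.03, C1qb -1.18, Cd5l -0.44, C1qc -0.86, C1qa -1.16 and Fcna -1.34. Axl was -0.35 without replicate 1 (up to 0.30 without another library), also with only the WT IL-2 libraries. In 7 libraries Mki67 was -0.03 without isotype replicate 2, -0.01 without 3a and -0.12 without block replicate 4 (highest 0.17), and Egr1 -0.02 without block replicate 4 (highest 0.27). The red pulp marker sum differed by -13.0 CPM without replicate 1. With total counts 7 in place of 5 marker sums were called. Where no library or covariate is named, the cause was not tested.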
